A study of Mus musculus with 6 samples.

Results

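Chemokines are small secreted proteins that attract white blood cells by binding G protein-coupled receptors on them. The inflammatory members are made when myeloid cells, dendritic cells and lymphocytes are stimulated, in large part through NF-kB and interferon signalling, and in marrow they influence the traffic and the division of stem and progenitor cells. The 9 inflammatory chemokine ligand genes described here are Ccl2, Ccl3, Ccl4, Ccl5, Ccl6, Ccl9, Cxcl2, Cxcl10 and Cxcl16. They were taken by name from 25033 listed gene symbols, and all 9 were found and passed the filter on low counts, among 12978 tested genes. They are fixed names and were not picked by a value of these files, although results of these data were already known when they were proposed.

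The series holds 6 mRNA libraries, 3 per group, of GFP+ cells sorted from mouse marrow, labelled as haematopoietic stem cells (HSCs), C57BL/6J and 6 months. In the control group the mice had been given HSCs treated with a control RNA. In the inhibitor group the transferred HSCs had received an RNA that blocks the microRNA miR-31-5p. The labels do not say which animals the strain and age describe, where the GFP came from, or how much inhibitor was used. Nor do they state whether each library is a different mouse, so the p-values measure the spread between these libraries, which may be technical.

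Libraries held 16873188 to 21245861 counts, and 3 counts were worth 0.141 to 0.178 CPM (counts scaled to a common library total). Each library was used as a replicate because the labels number the libraries within each group. Within a group, library pairs differed beyond counting error. Chi-square divided by its degrees of freedom, with Rn45s counted in, was 7.55 to 16.8 for control pairs and 3.04 to 4.24 for inhibitor pairs. Such differences do not show that the libraries are separate animals. Control libraries 1 and 3 had 20039 and 61656 counts of the ribosomal precursor gene Rn45s, against 1784 to 3667 in the other 4 libraries. The labelled cell type had uneven support. Kit, the stem cell factor receptor, had 6776 to 8889 counts in every library, but Mecom, a transcription factor of stem cells, had only 4 to 15. Mpo, the myeloperoxidase gene of early granulocytes, had 73081 to 111583. The Mir31 precursor had a count of 0 in all 6 libraries. An mRNA library is not made to hold it, so the inhibition itself is not measured by these files.

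The targeted microRNA is shown for its seed, bases 2 to 8, in capitals. Its gene lies on mouse chromosome 4, and the mature sequence is RefSeq's, at chr4:88910614-88910635 on the minus strand of GRCm38.p6.
mmu-miR-31-5p: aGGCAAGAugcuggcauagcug
The DNA match to that seed is TCTTGCC. In the longest 3' untranslated region of each gene in GENCODE M21, the match was found in 1 of the 9 ligands, Ccl9. It was found in 13.2% of 12260 tested genes with such a region. The Ccl9 match, in capitals, starts at base 1841 of a region of 2465 bases.
Ccl9 match: ttgtctccttcTCTTGCCttactgctgta
The match is a description of the letters. Ccl9 was lower in the inhibitor group, as given below.

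The chemokine ligands moved in both directions. In the inhibitor group Ccl5, Cxcl16, Cxcl2 and Ccl2 were higher, and Ccl3, Ccl4, Ccl6 and Ccl9 were lower. Cxcl10 did not pass the test. In all, 8 of the 9 passed a Benjamini-Hochberg adjusted p of 0.05 from edgeR (quasi-likelihood F test, adjusted over all tested genes), where 40.5% of all tested genes passed. The 4 higher ligands stand beside 20.4% of all tested genes called higher, and the 4 lower ones beside 20.1% called lower. The median log2 change (inhibitor minus control) of the 9 was -0.16, beside -0.01 over all tested genes. In 7 of the 9 the libraries of the groups did not overlap, beside 52.4% of all tested genes. Of these, 3 were higher and 4 lower, beside 25.9% and 26.5%. At least 2-fold changes past the threshold were seen in 5, beside 6.57%, with 3 higher (5.37%) and 2 lower (1.2%). Changes below are log2 changes with their standard error (SE) unless a fold is named, and levels are TMM-normalised CPM.

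**Figure D1:**
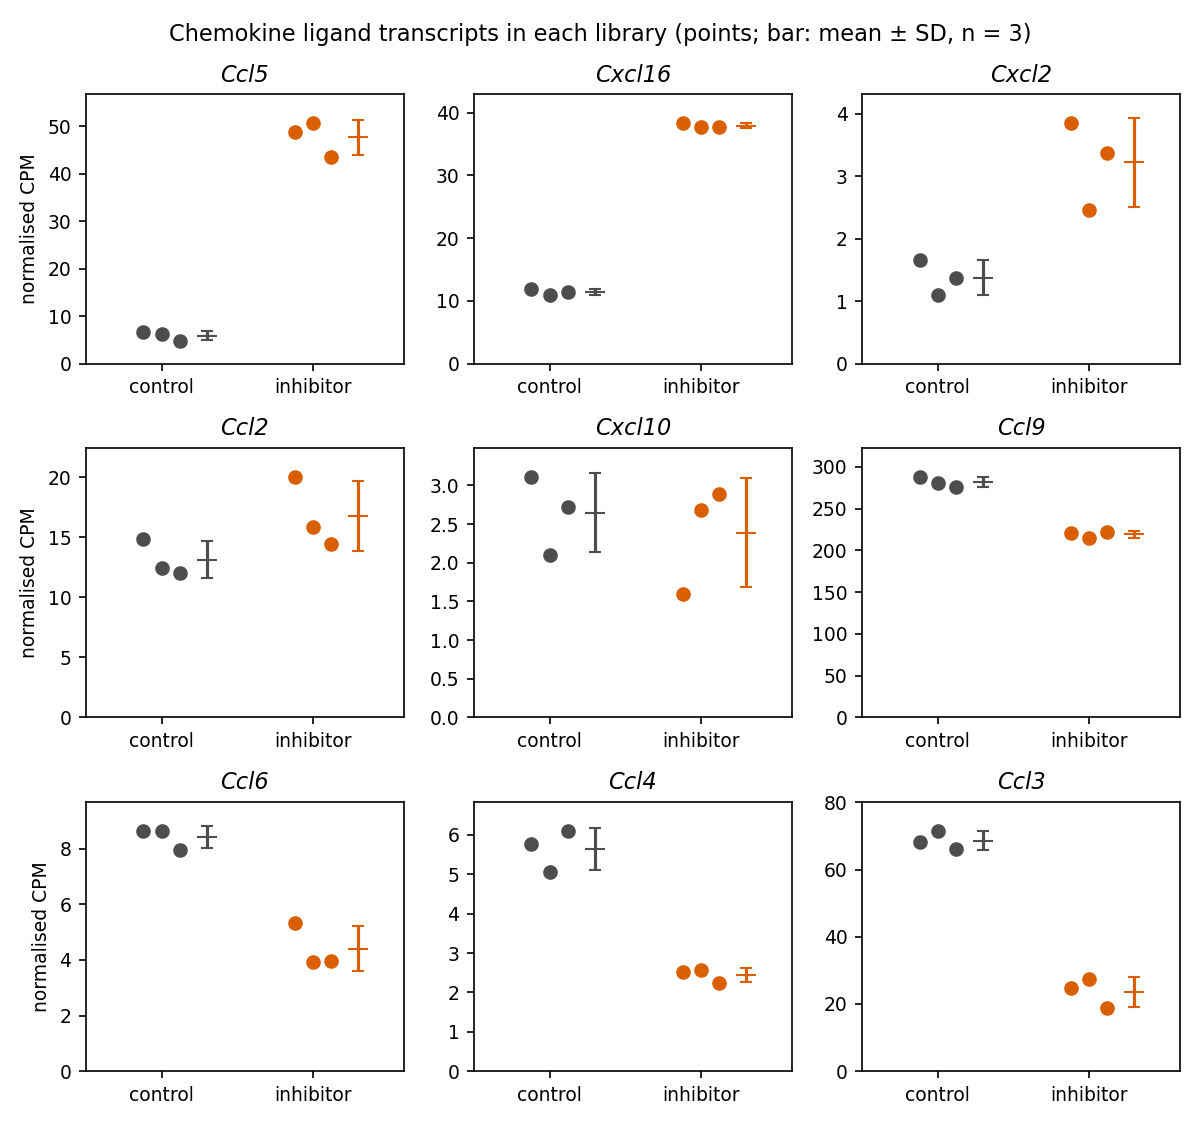
Normalised CPM (vertical axes, from 0) of each of the 9 ligands in the 3 control and 3 inhibitor libraries. Points are libraries 1 to 3 from left to right and bars are mean ± SD. The groups overlap for Ccl2 and Cxcl10 and are apart for the other 7.

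Ccl5 encodes RANTES, a ligand of CCR1 and CCR3 that attracts T cells and monocytes. It had 6.53, 6.30 and 4.80 CPM in control libraries 1 to 3 and 48.7, 50.7 and 43.4 CPM in inhibitor libraries 1 to 3. Every inhibitor library lay far above every control library. The mean went from 5.87 ± 0.94 to 47.6 ± 3.74 CPM (SD, n = 3 per group). The rise was 8.12-fold, or 3.02 ± 0.12 (SE, edgeR adjusted p = 2.77e-11). Its percentile among the log2 changes of all tested genes was 99.6.

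Cxcl16 encodes a chemokine made as a membrane protein, which is also a scavenger receptor and is the ligand of CXCR6. Its levels were 11.9, 10.99 and 11.4 CPM in the controls and 38.4, 37.6 and 37.8 CPM in the inhibitor libraries. The spread within each group was small beside the distance between the groups. The means were 11.4 ± 0.45 and 37.9 ± 0.39 CPM, a 3.31-fold rise (1.73 ± 0.09, edgeR adjusted p = 5.93e-10).

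Cxcl2 encodes MIP-2, a neutrophil attractant that acts through CXCR2. It was the least abundant ligand of the control group, with 33, 22 and 29 counts in the control libraries and 75, 42 and 57 in the inhibitor libraries. In CPM these were 1.66, 1.10 and 1.36 against 3.85, 2.45 and 3.37. Inhibitor library 2 was the lowest of its group, and still lay above all controls. Its change was 1.23 ± 0.26, a 2.35-fold rise (edgeR adjusted p = 0.00173).

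Ccl2 encodes MCP-1, the main ligand of the monocyte receptor CCR2. It had 14.9, 12.4 and 12.03 CPM in the controls and 20.03, 15.8 and 14.4 CPM in the inhibitor libraries. Control library 1 was above inhibitor library 3, so the groups overlapped. The change was 0.36 ± 0.13, or 1.28-fold (edgeR adjusted p = 0.0425). The call did not hold in DESeq2 (adjusted p = 0.0581). It also did not hold without control library 2 (edgeR adjusted p = 0.0928) or 3 (edgeR adjusted p = 0.133), or without inhibitor library 2 (edgeR adjusted p = 0.0646). Without inhibitor library 1, which had the highest level, the change was 0.21 (edgeR adjusted p = 0.263).

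Ccl3 and Ccl4 encode MIP-1 alpha and MIP-1 beta, closely related chemokines. MIP-1 alpha binds CCR1 and is known for restraining the division of primitive marrow progenitors. Ccl3 had 68.1, 71.6 and 66.0 CPM in the controls and 24.6, 27.3 and 18.7 CPM in the inhibitor libraries. All inhibitor libraries lay below all controls. The means were 68.6 ± 2.81 and 23.5 ± 4.43 CPM, a 2.91-fold fall (-1.54 ± 0.11, edgeR adjusted p = 5.58e-08). Its percentile among the log2 changes of tested genes was 0.378. Ccl4 had 115, 101 and 130 counts in the controls and 49, 44 and 38 in the inhibitor libraries. That was 5.77, 5.05 and 6.11 against 2.52, 2.57 and 2.24 CPM, again with no overlap. It fell 2.31-fold (-1.21 ± 0.18, edgeR adjusted p = 9.16e-05). Per kilobase of transcript, Ccl3 stood at 10.2 ± 1.45 times Ccl4 in the controls and 8.01 ± 0.98 times in the inhibitor libraries.

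Ccl6 and Ccl9 encode myeloid chemokines of the CCR1-binding group, which mouse granulocyte and macrophage lineages make without strong stimulation. Ccl9 was the most abundant ligand of the 9 by reads, with 288, 281 and 276 CPM in the controls and 221, 214 and 222 CPM in the inhibitor libraries. All inhibitor libraries lay below all controls. It fell 1.29-fold, by 0.36 ± 0.05 on the log2 scale (edgeR adjusted p = 5.05e-05). Ccl6 had 8.64, 8.65 and 7.94 CPM in the controls and 5.34, 3.91 and 3.96 CPM in the inhibitor libraries. Inhibitor library 1 was nearest the controls, without reaching them. Ccl6 fell 1.90-fold (-0.92 ± 0.16, edgeR adjusted p = 2.93e-04). Per kilobase, Ccl9 stood at 16.0 ± 0.55 times Ccl6 in the controls and at 24.2 ± 3.87 times in the inhibitor libraries. The range of this ratio was 15.5 to 16.6 against 19.8 to 26.7.

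Cxcl10 encodes IP-10, an interferon-induced ligand of CXCR3. Its counts were 62, 42 and 58 in the controls and 31, 46 and 49 in the inhibitor libraries, or 3.11, 2.10 and 2.73 against 1.59, 2.68 and 2.89 CPM. Inhibitor library 1 was the lowest of all 6, and the other inhibitor libraries lay within the control range. The change was -0.16 ± 0.27 (edgeR adjusted p = 0.668), with a 95% interval of -0.72 to 0.41. Its sign turned without inhibitor library 1 (0.08) and without control libraries 1 and 3 together (0.17), and it did not pass under any setting.

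**Figure D2:**
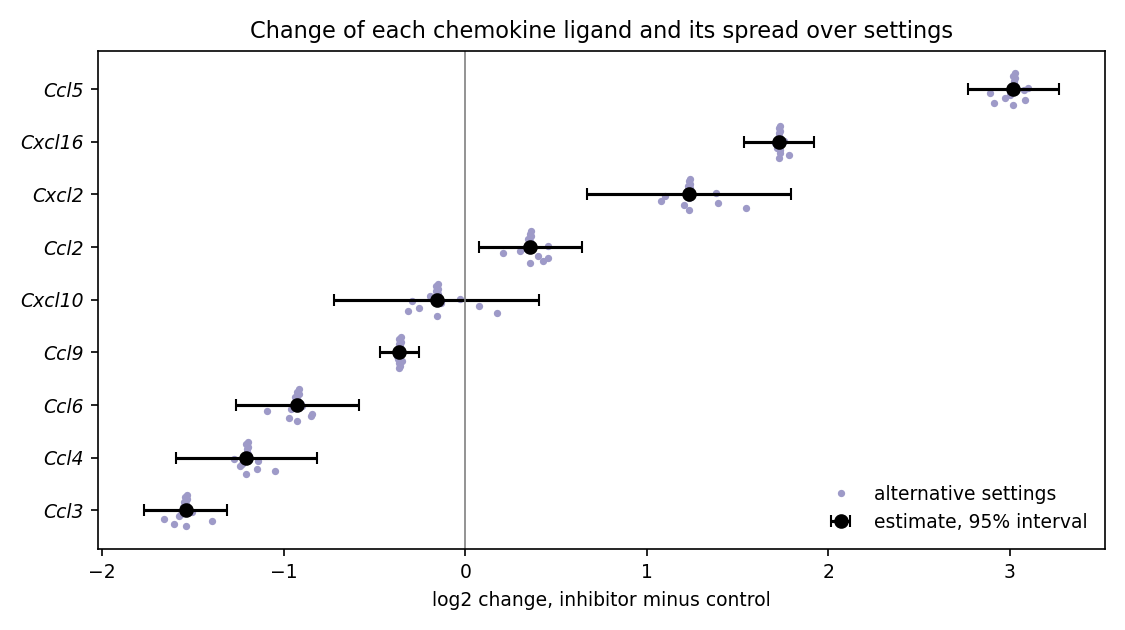
Log2 change, inhibitor minus control (horizontal axis), of each ligand. Black points and bars are the estimate and its 95% interval, and small points are the same change under each of 14 alternative settings. Ccl5 is at 3.02 and Ccl3 at -1.54, and the settings cross 0 for Cxcl10 alone.

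The ligand genes Ccl5, Ccl9, Ccl6, Ccl3 and Ccl4 lie side by side on mouse chromosome 11, and they did not move together. In RefSeq's annotation of GRCm38.p6, Ccl5 (83525778 to 83530518) is followed by Ccl9 (83572917 to 83578636), Ccl6 (83587886 to 83593087), Ccl3 (83647843 to 83649378) and Ccl4, within 138.9 kb. Ccl5, at the edge of this row, rose by 3.02 ± 0.12, while the 4 genes after it fell by 0.36 ± 0.05, 0.92 ± 0.16, 1.54 ± 0.11 and 1.21 ± 0.18. The RefSeq locus of Ccl4 (83648624 to 83664683) includes a predicted transcript that reaches over Ccl3, which lies on the other strand. The deposited Ccl4 counts list the curated transcript alone, and GENCODE places that gene at 83662584 to 83664683, clear of Ccl3. The only other tested gene in the row, named after its values were seen, was the noncoding E230016K23Rik, which spans Ccl6. It had 6 to 23 counts per library and a change of -0.60 (edgeR adjusted p = 0.242). Where exons of it and of Ccl6 overlap, their reads cannot be told apart without strand. Whether the exons overlap was not checked. Ccl2 (82035577 to 82037452) and Cxcl16 (70454389 to 70459984) lie elsewhere on chromosome 11. Cxcl2 (90903899 to 90905938) and Cxcl10 (92346638 to 92348889) are on chromosome 5.

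**Figure D3:**
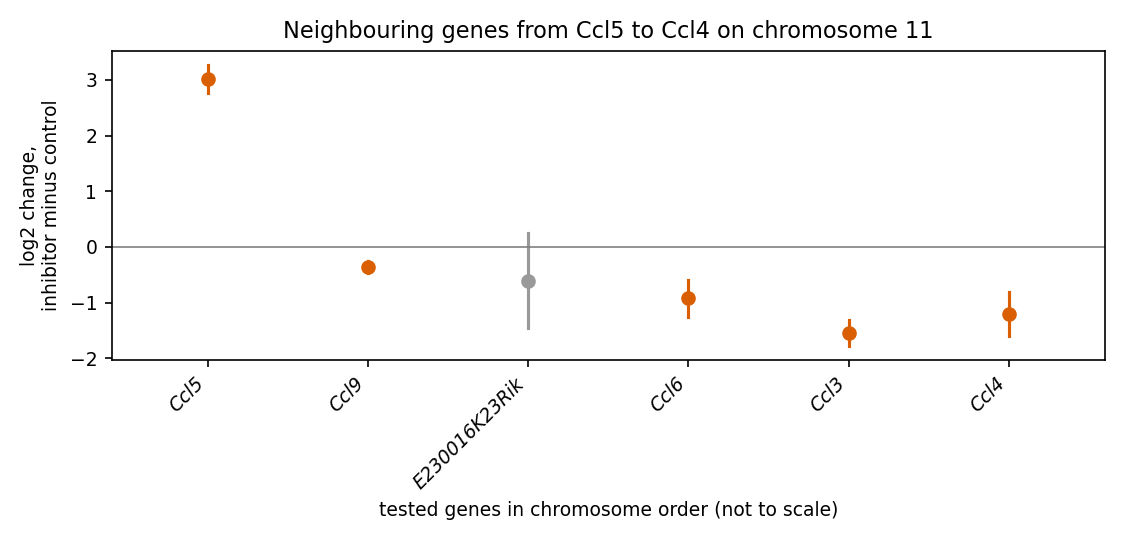
Log2 change, inhibitor minus control (vertical axis), of the tested genes from Ccl5 to Ccl4 in their order on chromosome 11 (horizontal axis, not to scale). Orange marks the chemokine ligands, grey the noncoding gene E230016K23Rik, and lines are 95% intervals. Ccl5 alone is above 0.

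To compare ligands with each other, CPM was divided by the length of the longest transcript in kilobases. In the control group the order was Ccl9 (93.6 ± 2.07 CPM per kb), Ccl3 (86.8 ± 3.56), Ccl2 (16.3 ± 1.90), Ccl5 (11.1 ± 1.77), Ccl4 (8.55 ± 0.82), Cxcl16 (7.32 ± 0.29), Ccl6 (5.86 ± 0.28), Cxcl10 (2.41 ± 0.47) and Cxcl2 (1.27 ± 0.26). The libraries of neighbours in that order overlapped for Ccl5 and Ccl4, and for no other pair of neighbours. In the inhibitor group the order was Ccl5 (89.6 ± 7.05 CPM per kb), Ccl9 (72.8 ± 1.39), Ccl3 (29.8 ± 5.61), Cxcl16 (24.3 ± 0.25), Ccl2 (20.8 ± 3.62), Ccl4 (3.70 ± 0.26), Ccl6 (3.07 ± 0.57), Cxcl2 (2.98 ± 0.66) and Cxcl10 (2.17 ± 0.64). Here Ccl3, Cxcl16 and Ccl2 overlapped, as did Ccl4, Ccl6, Cxcl2 and Cxcl10, each with its neighbour in the order.

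The summed level of the 9 ligands depended on the scale, and its makeup differed between the groups. Per kilobase, the sum was 225 to 240 CPM per kb in the controls and 233 to 258 in the inhibitor libraries, and these ranges overlap. In CPM, where Ccl9 weighs more, the sum was 388.5 to 409 in the controls and 348.5 to 366 in the inhibitor libraries, lower with no overlap. Of the sum per kilobase, Ccl3 made up 36.0 to 38.6% in the controls and 10.1 to 13.5% in the inhibitor libraries. Ccl5 made up 4.01 to 5.13% and 35.1 to 37.2% of the same sum. The ratio of Ccl5 to Ccl3, per kilobase, was 0.108 to 0.143 in the controls and 2.76 to 3.46 in the inhibitor libraries. Ccl9 remained a large part of the sum per kilobase in both groups, at 39.7 to 40.8% and 27.8 to 31.6%.

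**Figure D4:**
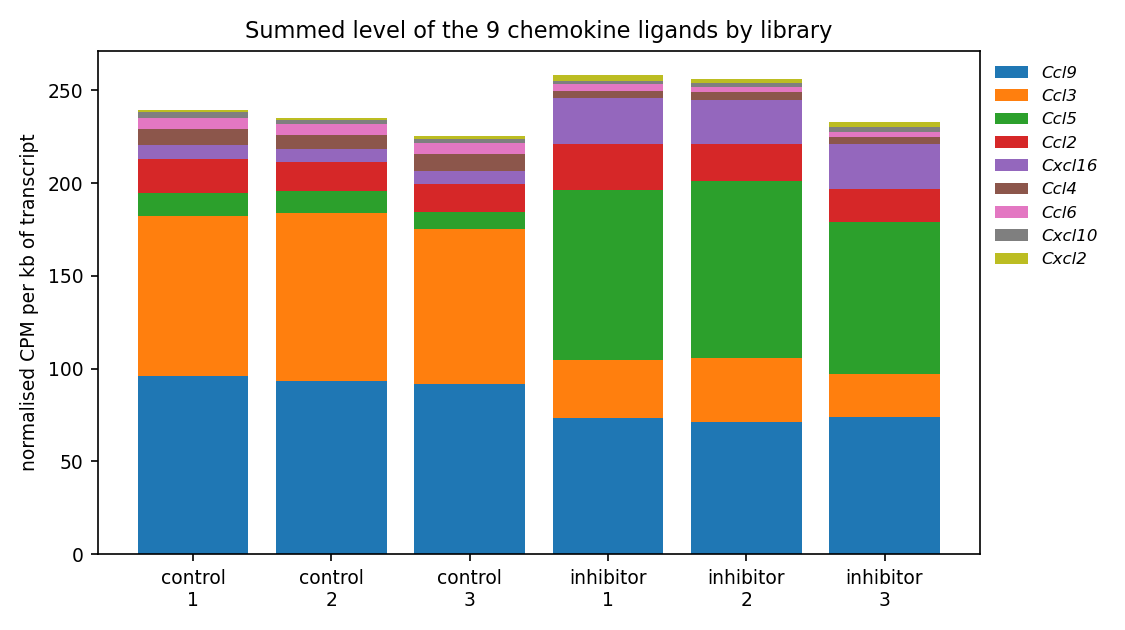
Normalised CPM per kb of transcript (vertical axis, from 0), stacked over the 9 ligands, in each library. The heights overlap between groups, at 225 to 240 in the controls and 233 to 258 in the inhibitor libraries, while Ccl5 (green) takes over from Ccl3 (orange).

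RefSeq's sequence tables matched 5 of the 9 ligands to a promoter: Ccl3, Ccl6, Ccl9, Cxcl2 and Cxcl10. The 250 bases before the start are shown for the CXC genes Cxcl2, which rose, and Cxcl10, which did not pass, and for Ccl3 and Ccl9, which fell. Motifs were sought on both strands and are in capitals. They were an NF-kB core GGGNNNTTC, an interferon response core GAAANNGAA, the AP-1 site TGANTCA, a C/EBP core TTGCNNAA and the TATA box TATAAA. Across 32851 promoters of the same length, these were found in 11.8%, 7.13%, 6.75%, 9.56% and 12.4%. The stretches are chr5:90903649-90903898 (plus strand) for Cxcl2, chr5:92348890-92349139 (minus) for Cxcl10, chr11:83649379-83649628 (minus) for Ccl3 and chr11:83578637-83578886 (minus) for Ccl9, in GRCm38.p6.
Cxcl2: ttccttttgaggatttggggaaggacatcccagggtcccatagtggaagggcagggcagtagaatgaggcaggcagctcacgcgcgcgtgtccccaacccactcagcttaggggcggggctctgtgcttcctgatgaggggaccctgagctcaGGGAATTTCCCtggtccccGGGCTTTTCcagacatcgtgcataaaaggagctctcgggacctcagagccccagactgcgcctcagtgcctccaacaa
Cxcl10: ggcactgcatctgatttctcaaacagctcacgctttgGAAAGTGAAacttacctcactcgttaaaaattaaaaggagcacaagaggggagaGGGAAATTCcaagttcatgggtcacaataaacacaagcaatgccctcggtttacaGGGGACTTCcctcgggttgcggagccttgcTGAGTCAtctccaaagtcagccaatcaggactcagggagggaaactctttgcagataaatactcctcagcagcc
Ccl3: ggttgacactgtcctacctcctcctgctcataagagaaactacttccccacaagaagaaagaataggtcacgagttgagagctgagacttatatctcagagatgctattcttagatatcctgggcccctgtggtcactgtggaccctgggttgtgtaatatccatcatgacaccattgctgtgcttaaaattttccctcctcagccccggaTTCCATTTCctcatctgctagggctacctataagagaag
Ccl9: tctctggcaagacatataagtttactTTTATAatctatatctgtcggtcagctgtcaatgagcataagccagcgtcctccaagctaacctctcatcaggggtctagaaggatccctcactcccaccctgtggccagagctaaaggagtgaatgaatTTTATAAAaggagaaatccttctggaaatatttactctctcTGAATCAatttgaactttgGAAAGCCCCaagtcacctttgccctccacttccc
The Cxcl2 stretch held 3 matches of the NF-kB core, of which the first pair overlap on opposite strands from base -97 to base -87 and the last starts at -78. That of Cxcl10 held the NF-kB core at -159 and -104, the interferon core at -213 and AP-1 at -74. Ccl9 had the NF-kB core at -34, AP-1 at -53 and TATA matches at -224, -94 and -92, of which the last pair overlap. Ccl3 had the interferon core alone, at -39. The Ccl6 stretch, not shown, had none of these letters. Of the ligands called higher, Cxcl2 alone had a matched promoter to search. The NF-kB core was found in the stretches of Cxcl2, Cxcl10 and Ccl9. These matches are descriptions of the letters, and binding was not measured.

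Most other chemokine ligand genes had too few counts to be tested. Of 29 further ligand genes, 10 could be tested, with 6 called higher and 1 lower, 3 uncalled and a median of 0.81, beside 20.4% called higher, 20.1% called lower and a median of -0.01 over all tested genes. The filter let through only genes with counts in at least 1 group, and 9 of the 29 had no count in any library. Ccl22, a dendritic cell and macrophage ligand of CCR4, rose by 2.39 ± 0.07, from 28.9 ± 2.42 to 151 ± 1.45 CPM. Cx3cl1, the membrane-bound chemokine fractalkine, rose by 2.11 ± 0.15, and the platelet chemokine Pf4 by 1.40 ± 0.06. Ccl7, which encodes MCP-3 and binds CCR2 as the Ccl2 product does, rose by 1.32 ± 0.18, from 45 to 58 counts per control library to 111 to 117 per inhibitor library. The lower one, named after its values were seen, was Ccl27a (-0.80 ± 0.30, edgeR adjusted p = 0.0439). Mice carry near-identical copies of that gene, so its counts are uncertain, and the call did not hold in DESeq2 or without control library 2, inhibitor library 2 or inhibitor library 3. The other interferon-induced CXCR3 ligands, named after their values were seen, were near silent beside Cxcl10. Cxcl9 had 1 count in each group and Cxcl11 had 0 and 2.

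Of 11 listed receptors that bind these ligands, 7 were tested, with 3 called higher, none lower, 4 uncalled and a median of 0.46. Their share called is near the 40.5% of all tested genes called in either direction. Cxcr6, the receptor of Cxcl16, had 8, 7 and 7 counts in the controls and 24, 17 and 16 in the inhibitor libraries (1.54 ± 0.40, edgeR adjusted p = 0.00616). Its control counts were under the filter's minimum of 10, so it was tested only through the inhibitor group, where it is high. The stricter filter left it out. Without control libraries 1 and 3, Cxcr6 was at 1.58 (edgeR adjusted p = 0.108), not past the threshold. Cxcr2, the Cxcl2 receptor of neutrophils, was at 0.46 ± 0.16 (edgeR adjusted p = 0.0357), and lost the call in DESeq2 (adjusted p = 0.0796). It also lost it without control library 2 or 3 or inhibitor library 1 or 3 (edgeR adjusted p = 0.0756 to 0.123). Ccr2 stayed at 0.00 ± 0.07, with means of 242.6 and 242.7 CPM. Ccr1 (0.14 ± 0.14), Cxcr3 (-0.07 ± 0.39) and the atypical receptor Ackr1 (0.56 ± 0.36) did not pass. Leaving out control library 2 brought Ccr1 past the threshold (0.34, edgeR adjusted p = 0.0291). Ccr3, Ccr4, Cxcr1 and Ackr2 were not tested, with 0 to 12 counts per library. Of these, Ccr3 had 4 counts over the controls and 28 over the inhibitor libraries, and Cxcr1 had 1 and 16, of which 11 were in inhibitor library 1.

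Proteases that cut chemokines were mostly lower. Of 8 listed, 7 were tested, with 2 higher, 5 lower and a median of -0.29, beside 20.4% and 20.1% of all tested genes. Of the higher pair, Dpp4 (0.36 ± 0.13), named after its values were seen, lost its call under 6 alternative settings, among them the loss of control library 1 or 3 or inhibitor library 1 or 3. Adam10, which sheds Cxcl16 and fractalkine from the cell surface, rose by 0.37 ± 0.05. Adam17, which can also shed them and was named after its values were seen, fell (-0.19 ± 0.05). The neutrophil serine protease genes Elane (-0.41 ± 0.05), Prtn3 (-0.39 ± 0.08) and Ctsg (-0.44 ± 0.09) fell.

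The inducible genes that usually accompany inflammatory chemokines also moved both ways. Of 26 NF-kB induced inflammatory genes, 25 were tested, with 14 called higher, 4 lower, 7 uncalled and a median of 0.26, beside 20.4% called higher and 20.1% called lower over all tested genes. Il1b, which encodes interleukin 1 beta, rose by 2.02 ± 0.15, Ptgs2, the inducible cyclooxygenase, by 1.91 ± 0.13, the signalling adaptor Traf1 by 1.82 ± 0.10 and the dendritic cell activation marker Cd83 by 1.01 ± 0.07. Tnf, named after its values were seen, fell with Ccl3 and Ccl4, by 0.39 ± 0.11 on the log2 scale (edgeR adjusted p = 0.0136). Of 22 interferon induced genes, all tested, 11 were called higher and 3 lower, 8 were uncalled and the median was 0.33, beside the same shares over all tested genes. Without control libraries 1 and 3, the number called higher was 7. The guanylate-binding protein gene Gbp2 (1.68 ± 0.12), Mx1 (1.57 ± 0.13) and Oasl2 (0.90 ± 0.11) rose, and the transcription factor gene Irf1 fell (-0.45 ± 0.08). Cxcl10, which is a target of both pathways, did not pass.

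**Figure D5:**
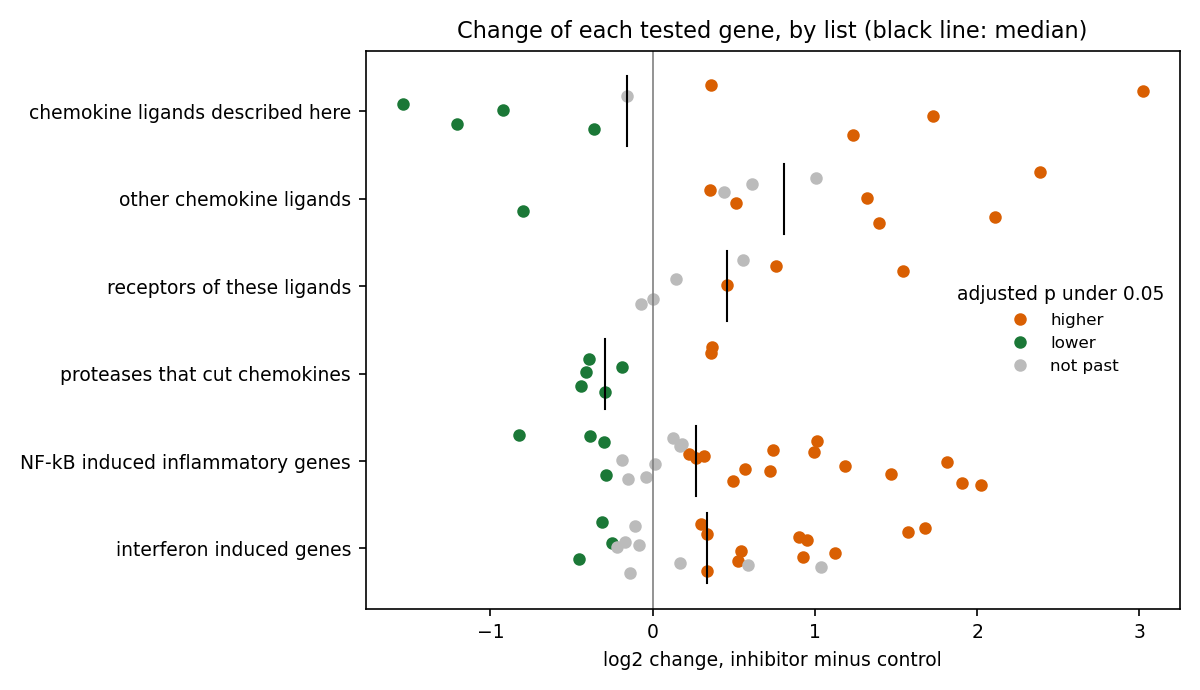
Log2 change, inhibitor minus control (horizontal axis), of each tested gene in 6 lists (rows). Orange and green points passed an adjusted p of 0.05 as higher and lower, grey points did not, and black lines are medians. The 9 chemokine ligands span -1.54 to 3.02, around a median of -0.16.

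Markers of several cell types moved beside the ligands, and their counts stand beside 20.4% called higher and 20.1% called lower over all tested genes. In bulk RNA, fewer cells of a type and less RNA per cell cannot be told apart. Of 10 dendritic cell markers, all tested, 6 were higher and 2 lower. Their summed level was 811 to 918 CPM in the controls and 1407 to 1412 in the inhibitor libraries. A large part of both sums came from the MHC class II presentation genes Cd74, H2-Aa and H2-Ab1. Their means were 421, 137 and 93.5 CPM in the controls and 680, 208 and 161 CPM in the inhibitor libraries. Among the 10 markers Ccr7, the receptor of migrating dendritic cells, rose by 2.23 ± 0.06, beside the rises of Ccl5, Cxcl16 and Ccl22. The plasmacytoid cell marker Siglech, named after its values were seen, fell (-0.60 ± 0.11). Of 10 monocyte markers, 1 was higher and 5 lower, with sums of 2167 to 2267 and 1841 to 1896 CPM. F13a1 (-1.77 ± 0.06) and Ly6c2 (-0.94 ± 0.06) fell, beside the falls of Ccl3, Ccl4, Ccl6 and Ccl9, while Csf1r, the macrophage growth factor receptor, was at 0.05 ± 0.05. Of 12 neutrophil markers, 10 were tested. The 6 higher ones included S100a8 (1.62 ± 0.06) and the 4 lower ones Elane, Mpo, Prtn3 and Ctsg, with sums of 6442 to 7300 and 5726 to 5875 CPM. Retnlg had no count and Ly6g had 1 count in all. Of 11 macrophage markers, 5 were higher and 2 lower, with sums of 126 to 136 and 138 to 147 CPM, and Cd5l rose by 2.48 ± 0.15. Without control libraries 1 and 3, 2 macrophage markers were called higher. Their part in the ligands' changes was not tested.

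Lymphocyte markers were low or lower. T and natural killer cells are a known source of the Ccl5, Ccl3 and Ccl4 products. Of 14 T and natural killer cell markers found, 4 were tested and 3 were lower, with sums of 82.2 to 93.9 CPM in the controls and 29.3 to 35.5 in the inhibitor libraries. Gzma had no count, and Cd3d, Cd3e and Cd3g had 1 count each over all 6 libraries. Gzmb, a granzyme gene that is also expressed by other cells, made up most of the sum in the controls and fell by 2.27 ± 0.11 on the log2 scale. Of 8 B cell markers, 3 were tested and 2 were lower, with sums of 17.5 to 19.5 and 10.6 to 11.7 CPM.

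Markers of the remaining lineages moved as follows. Of 10 mast cell, basophil and eosinophil markers, 9 were tested, with 4 higher and 1 lower and sums of 1316 to 1357 and 1503 to 1591 CPM. The basophil protease gene Mcpt8 did not pass (-0.15 ± 0.07). All 10 megakaryocyte and platelet markers were higher, with sums of 1270 to 1497 and 3416 to 3473 CPM, beside the rises of the platelet chemokines Pf4 and Ppbp (0.36 ± 0.05). Of 8 erythroid markers, 4 were tested and 3 were higher, with sums of 5.59 to 7.28 and 12.5 to 15.1 CPM. Of 12 stem and progenitor cell markers, 3 were higher and 3 lower, with sums of 1140 to 1170 and 1175 to 1232 CPM. Of 10 stroma and endothelium markers, 3 were tested and 1 was lower, with sums of 24.3 to 26.7 and 18.4 to 24.9 CPM. Cdh5, a defining gene of endothelium, had 0 to 4 counts per library.

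Genes outside the 9 ligands were compared with Ccl9 over the 6 libraries. Ccl9 was chosen as the ligand with the highest mean deposited RPKM, and the other ligands described here were left out of the comparison. Among the remaining 12969 tested genes, Pearson's r of log2 CPM was highest for Rrm2, a subunit of ribonucleotide reductase (r = 0.999, Spearman's rho = 1), Nt5dc2 (0.998 and 0.94) and Hspa9, a mitochondrial chaperone (0.998 and 0.94). These are descriptions over 6 libraries in 2 groups, and 761 genes had an r above 0.95. Rrm2 went from 236, 232 and 227 CPM in the controls to 180, 175 and 182 CPM in the inhibitor libraries.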

How the data were processed

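The authors deposited, per the file headers, a read count per RefSeq gene symbol for each library, not normalised, and an RPKM value, the count divided by the longest transcript length and a library total. Per the submitters' processing notes, the tools included bcl2fastq 2.20, with mm10 as the build. The sources used here do not give the aligner, the counter or the strandedness. RPKM chose only the ligand used for the search of like genes. Its library totals exceeded the summed counts by 0.220 to 8.68%, so levels per kilobase were recomputed from counts.

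Counts were filtered with edgeR's filterByExpr (minimum count 10, minimum total 15), scaled by TMM and compared, inhibitor against control, by the quasi-likelihood F test (robust) of edgeR 4.0.16 under R 4.3.3, with Benjamini-Hochberg adjustment over 12978 genes and a threshold of 0.05. SE is the log2 change over the square root of F. Intervals (95%) and limits of 3 counts cover the spread or counting error only. The ligands and gene lists were chosen with earlier results of these data known, and no list was tested as a set. Besides the 9 ligands and their receptors, genes named are up to 4 per list with the smallest p-values past the threshold, unless said otherwise. Further marker genes, including Kit, Mecom, Mpo, Csf1r, Mcpt8 and those at or near 0, were chosen after their values were seen. A listed receptor and a listed marker are counted in their lists but not reported here by name. Log2 CPM used a prior count of 2. Motifs and seed matches were searched in Python 3.11.15. The procedure was tested on simulated data. Alternatives were RLE size factors, no filter, a stricter filter (1 CPM in all libraries of a group, mean of 10 counts), a block for replicate number, dropping each library in turn, leaving out control libraries 1 and 3, DESeq2 1.42.0, limma-voom (limma 3.58.1), and leaving out Rn45s and the 50 most abundant genes.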

Additional observations from a re-analysis of the deposited data

How the results depend on the processing

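Of the 9 ligands' changes under 14 alternative settings each, 121 of 126 stayed on the same side of the threshold in the same direction, or, for Cxcl10, did not pass. The other 5 were all of Ccl2, which lost its call in DESeq2 (0.36, adjusted p = 0.0581), without control replicate 2 (0.33) or 3 (0.30) and without inhibitor replicate 1 (0.21) or 2 (0.40). The ligands called higher numbered 3 to 4 and those called lower 4 under every setting, with 3 to 4 and 4 when each library was left out. Over all tested genes, 2063 to 2849 were called higher and 1877 to 2843 lower, against 2646 and 2613. With the replicate block, 2831 were called higher and 2842 lower, and the same numbers of ligands (4 and 4). The replicate numbers share no stated source, and same-numbered libraries deviated together little (r of 0.06, 0.01 and 0.04), and not every library correlated best with its own number. Counts in other lists moved by over 1.5 times in 31 of 448 cases. Interferon induced genes called higher numbered 7 without control libraries 1 and 3 (against 11), receptors called higher 5 with no filter (against 3), proteases called higher 1 under 6 settings (against 2), and other ligands called lower 0 under 4 settings (against 1). Macrophage markers called higher numbered 2 without control libraries 1 and 3 (against 5), and macrophage markers called lower 1 under 9 settings (against 2). B cell markers called lower numbered 1 under 3 settings (against 2), erythroid markers called higher 5 with no filter and in DESeq2 (against 3) and lower 1 under 3 settings (against 0), and stroma and endothelium markers called higher 1 with no filter (against 0). Leaving out control libraries 1 and 3 leaves 1 control library, assumed to vary like the others. The cause of these shifts was not tested. Cxcl2 and Cxcl10 had the fewest counts of the 9 ligands summed over the 6 libraries, at 22 to 75 per library.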
